A study of Mus musculus and Homo sapiens with 14 samples.

Results

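Thbs1, Tgm2, Timp1, Timp2, Timp3, Col4a1, Col4a2 and Fn1 encode proteins that are deposited in, crosslink or regulate the extracellular matrix. These 8 genes are described here out of 20682 genes in the mouse tables and, as THBS1, TGM2 and so on, out of 19166 genes in the human table, and each symbol had 1 row in every table. Thbs1, Tgm2 and Col4a1 were picked because their levels differed between loss of Sik3 and loss of Mef2c, and the other 5 are their relatives in the matrix. The levels of all 8 in the knockout libraries are therefore given as a description with no test. Tests are given for these genes only in the inhibitor-treated cells, and in the knockouts only for other genes.

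The study profiled polyA RNA of acute myeloid leukemia cells in 14 libraries, in 7 groups of 2. RN2 is a mouse leukemia line driven by MLL-AF9 and mutant Nras, RN2c is the same leukemia expressing Cas9, and MOLM-13 is a human MLL-AF9 leukemia line, here labelled as carrying an empty vector. RN2c cells were collected on day 2 after infection with a guide RNA against the Rosa26 locus (sgRosa26, a control for cutting), against Sik3 (guides e1 and e3, 1 library each) or against Mef2c (guides 1 and 2, 1 library each). All 6 of these RN2c libraries carry Cas9 and a guide, and the same sgRosa26 libraries serve both knockouts. RN2 and MOLM-13 cells received 0.1% DMSO or the salt-inducible kinase inhibitor YKL-05-099 for 2 hours, at 350 nM in RN2 and at 250 nM in MOLM-13. The RN2 titles also carry the word empty, which the labels do not explain for that line. The infected cells were not described as selected clones, so a library can hold cells with and without an edited gene. In such bulk RNA, fewer cells expressing a gene and less RNA per cell cannot be told apart.

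Thrombospondin 1, the product of Thbs1, is a secreted glycoprotein that binds CD47, CD36, LRP1 with calreticulin, and integrins, and it can release TGF-beta from its latent form. Transglutaminase 2 (Tgm2) joins glutamine and lysine side chains of matrix proteins, fibronectin (Fn1) among its substrates, and fibronectin is the ligand of integrins with the alpha-4, alpha-5 and alpha-v chains. Collagen IV is the network-forming collagen of basement membranes, and its most widespread form is a heterotrimer of the Col4a1 and Col4a2 chains. TIMPs inhibit matrix metalloproteases, and TIMP1 also binds the tetraspanin CD63. SIK3 is a kinase that holds class IIa histone deacetylases in the cytoplasm, away from their partner MEF2C, a transcription factor on which many MLL-rearranged leukemias depend.

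Levels are given in CPM, the usual unit for reads set to a common library size, here computed from whole reads recovered from the deposited values and library totals of 13961461 to 24275290 reads scaled by TMM factors. The RN2c libraries were scaled together and the RN2 and MOLM-13 tables each on their own, so levels set side by side across the 3 lines were not tested. The targeted genes fell under their guides. Sik3 stood at 93.3 and 90.3 CPM with sgRosa26 and at 58.8 (e1) and 56.5 (e3) with sgSik3, a log2 change of -0.68 (standard error, SE, 0.05). Mef2c stood at 384 in both sgRosa26 libraries and at 179 (guide 1) and 184 (guide 2) with sgMef2c, a log2 change of -1.08 (SE 0.04). Mef2c was also 357 and 358 in the sgSik3 libraries, a log2 change of -0.11 (SE 0.03). The 9 genes listed for myeloid leukemia blasts were all measured in RN2c. Of the markers listed for other cells, Col3a1, Dcn, Lum and Thy1 (fibroblast), Kdr and Emcn (endothelium), Pf4 and Gp6 (megakaryocyte) and C1qa (macrophage) had 0 reads in every RN2c library, while others on the same lists were measured. The 9 fibroblast markers summed to 26.4 to 35.5 CPM per library, nearly all of it Pdgfrb, and the 8 endothelial ones to 288 to 346, nearly all of it Pecam1. The megakaryocyte list summed to 5.29 to 8.31 CPM, led by Itga2b, and the 10 macrophage markers to 246 to 345, led by Adgre1.

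Thbs1 was the most abundant of the 8 genes in the mouse lines by a wide margin, and under the Sik3 guides it became one of the most abundant transcripts of the cell. Its levels were 942.7 and 1040 CPM with sgRosa26, 2847 (e1) and 2775 (e3) with sgSik3, and 1087 (guide 1) and 1326 (guide 2) with sgMef2c. Both Sik3 guides gave values far above every other RN2c library, while sgMef2c guide 1 lay just above the higher control. Ranked by reads among all genes of its library, Thbs1 stood at places 75 and 60 with sgRosa26, 5 and 6 with sgSik3, and 64 and 45 with sgMef2c. Per kb of exon, which allows genes to be compared, its mean level was 163 CPM per kb with sgRosa26, 463 with sgSik3 and 199 with sgMef2c. By this measure it ranked 212 of 19958 genes in the controls and 47 of 19958 with sgSik3. The log2 change was 1.50 (SE 0.05) with sgSik3, or 2.87-fold with e1 and 2.79-fold with e3. With sgMef2c it was 0.27 (SE 0.09), or 1.09-fold with guide 1 and 1.34-fold with guide 2. Set directly against sgSik3, the sgMef2c libraries were lower by 2.34-fold, a log2 difference of -1.23 (SE 0.08).

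Tgm2, the crosslinking enzyme, followed the same order at a far lower level. It was read at 3.76 and 4.41 CPM with sgRosa26, 14.1 and 13.7 with sgSik3 e1 and e3, and 5.44 and 5.03 with sgMef2c guides 1 and 2. The 3 groups did not overlap, and the sgMef2c values lay much closer to the controls than to sgSik3. Lack of overlap was common, at 75.2% of all genes tested for sgSik3, 70.5% for sgMef2c and 57.9% for the knockouts against each other. The log2 change was 1.75 (SE 0.13) with sgSik3, or 3.42-fold and 3.33-fold with its guides, and 0.36 (SE 0.15) with sgMef2c, or 1.33-fold and 1.23-fold. The direct log2 difference, sgMef2c minus sgSik3, was -1.41 (SE 0.11). Exons of Tgm2 overlap exons of Rprd1b on the other strand, and the strand setting of the counting is not given in the sources used here, so reads of the shared stretch cannot be assigned with certainty. Rprd1b itself stayed between 83.8 and 89.3 CPM in the sgRosa26 and sgSik3 libraries and stood at 95.9 and 99.2 with sgMef2c.

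Fibronectin transcripts were scarce, so the values of Fn1 rest on few reads. The sgRosa26 libraries held 7 and 3 reads, the sgSik3 libraries 37 (e1) and 33 (e3), and the sgMef2c libraries 15 (guide 1) and 13 (guide 2). In CPM these were 0.317 and 0.144, then 1.74 in both sgSik3 libraries, then 0.618 and 0.641. The guides of a gene gave nearly equal values, and the 3 groups did not overlap. Pooled over libraries, the ratio to sgRosa26 was 7.29 (95% exact interval 3.74 to 15.9) for sgSik3 and 2.64 (1.24 to 6.08) for sgMef2c. These intervals cover counting error only, not the spread between cultures or guides, and are not a test of a change. Fn1 reached the minimum mean value of 10 in the sgSik3 table only through the libraries in which it was high, and it stayed below it in the sgMef2c table. Without the first sgRosa26 library the ratio for sgMef2c was 4.29 and for sgSik3 11.8, and without the second it was 1.93 and 5.33.

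**Figure D1:**
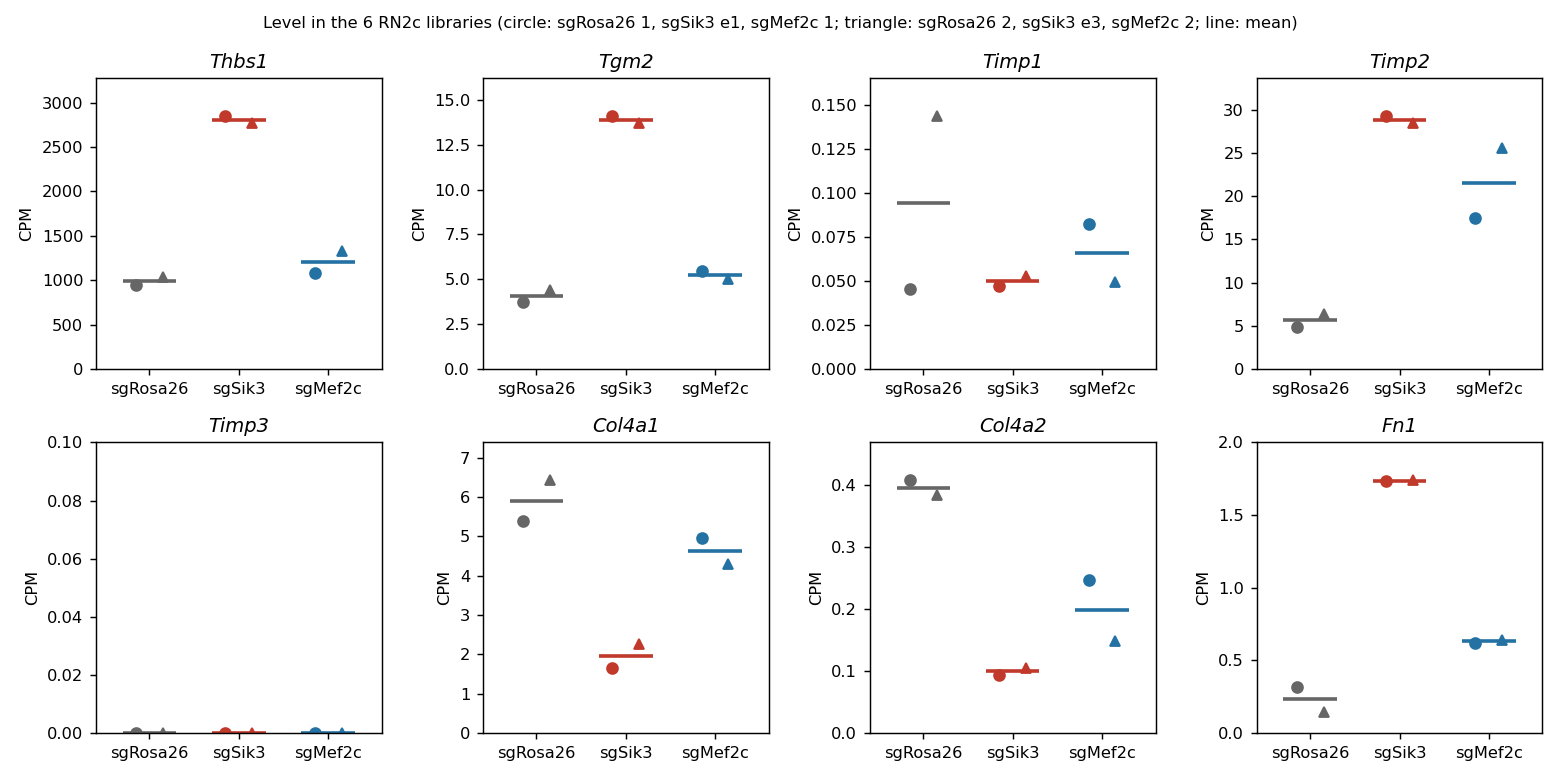
Level of each of the 8 genes in CPM (y axis, linear and starting at 0, with its own range in each panel) in the 6 RN2c libraries, grouped by guide target (x axis), where points are libraries and lines are means of 2. Thbs1, Tgm2 and Fn1 stand highest and Col4a1 and Col4a2 lowest in the sgSik3 libraries, Timp2 is high under both knockouts, Timp1 rests on 1 to 3 reads per library and Timp3 on 0 reads.

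Timp2 was high under both knockouts, unlike Thbs1 and Tgm2. Its product inhibits metalloproteases and takes part in the activation of pro-MMP2 at the cell surface. Levels were 4.84 and 6.38 CPM with sgRosa26, 29.2 (e1) and 28.5 (e3) with sgSik3, and 17.4 (guide 1) and 25.6 (guide 2) with sgMef2c. Each of the 4 knockout libraries lay far above both controls, and the sgMef2c libraries below both sgSik3 libraries. The log2 change was 2.36 (SE 0.13) with sgSik3, or 5.21-fold and 5.07-fold with e1 and e3. With sgMef2c it was 1.91 (SE 0.20), or 3.10-fold with guide 1 and 4.58-fold with guide 2. The direct log2 difference was -0.44 (SE 0.15), and it ranged from -0.73 to -0.18 over the alternatives. Timp2 lies at chr11:118301069-118355740 on the minus strand of GRCm38. The 2 motifs found in its RefSeq promoter window, from 250 bases before to 50 after the RefSeq start, are shown because Timp2 stood high under all 4 knockout guides. That window, chr11:118355362-118355661, lies inside the gene span just given, which is from GENCODE and starts at 118355740. By the GENCODE start both motifs are therefore within the gene, downstream of its start. They are printed 5′ to 3′ on the gene's strand (GRCm38.p6) with the motif in capitals and 12 bases on each side, at chr11:118355431-118355460 for the GC box and at chr11:118355557-118355585 for the CCAAT box further upstream.
Timp2 GC box: ctggggagggctGGGCGGcgcggcgcggga
Timp2 CCAAT box: cgtgtgtgagtgCCAATccagcgcgcagt

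The other inhibitors of the family were close to absent from these mouse cells. Timp1 had 1 and 3 reads with sgRosa26, 1 and 1 with sgSik3, and 2 and 1 with sgMef2c, too few for any comparison (ratio for sgSik3 0.520, 95% exact interval 0.0471 to 3.63). Timp3 had 0 reads in all 6 RN2c libraries. Timp3 lies inside Syn3 on the opposite strand, where Syn3 itself had 43 to 80 reads per library. Timp1 likewise lies within Syn1, which had 9 to 17.

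Col4a1 went the other way from Thbs1, Tgm2 and Fn1. Its levels were 5.38 and 6.42 CPM with sgRosa26, 1.64 (e1) and 2.27 (e3) with sgSik3, and 4.95 (guide 1) and 4.29 (guide 2) with sgMef2c. The sgSik3 values were the lowest of the 6, and the sgMef2c values lay below the controls without overlapping them. The log2 change was -1.59 (SE 0.20) with sgSik3, where e1 was 3.52-fold and e3 2.57-fold lower than the control mean. With sgMef2c it was -0.35 (SE 0.15), or 1.19-fold lower with guide 1 and 1.37-fold lower with guide 2. The direct log2 difference, sgMef2c minus sgSik3, was 1.25 (SE 0.20). On the log2 scale the Sik3 guides were -1.81 (e1) and -1.36 (e3), further apart than for Thbs1 (1.52 and 1.48) or Tgm2 (1.77 and 1.73).

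Col4a2, which encodes the partner chain, was read 9 and 8 times with sgRosa26, 2 and 2 times with sgSik3, and 6 and 3 times with sgMef2c. Both Sik3 guides gave the lowest counts of the set. The pooled ratio to sgRosa26 was 0.245 (95% exact interval 0.0600 to 0.751) for sgSik3 and 0.499 (0.196 to 1.18) for sgMef2c. As for Fn1, the intervals cover counting error only and are not a test of a change. Per kb of exon in the control libraries, Col4a1 averaged 0.791 and Col4a2 0.0597 CPM per kb.

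The Col4a1 and Col4a2 genes lie head to head on chromosome 8 of GRCm38, Col4a1 at chr8:11198423-11312826 on the minus strand and Col4a2 at chr8:11312805-11449287 on the plus strand. Their annotated start sites face away from each other with 22 bases in common. Whether this arrangement bears on the levels of either gene was not tested. RefSeq promoter windows were matched for 5 of the 8 genes. Thbs1, Tgm2 and Fn1 had no window, so the motif counts below do not cover them. The Col4a1 and Col4a2 windows had 74.0% and 73.7% G and C and shared 78 bases. On either strand, none of the 5 windows held a MEF2 box, a CArG box, the AP-1 motif TGANTCA, the CRE TGACGTCA, or the TATA box TATAAA. Of all 32851 mouse windows of this length, 3.19%, 1.63%, 7.81%, 1.79% and 13.6%, respectively, held one. The GC box GGGCGG was found in all 5 (35.7% of all windows) and the box CCAAT in 4 of them, all but Timp3 (37.4%). The only GC box of the Col4a1 window lies in the 78 shared bases and is also counted for Col4a2. The 5 windows held 55.0% to 74.0% G and C, and no allowance was made for base content. The shorter CRE letters TGACG, which are part of the full CRE, was found in Timp1 alone (20.8% of all windows). A match is a description of letters, and the absence of one says nothing about a factor's binding.

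**Figure D2:**
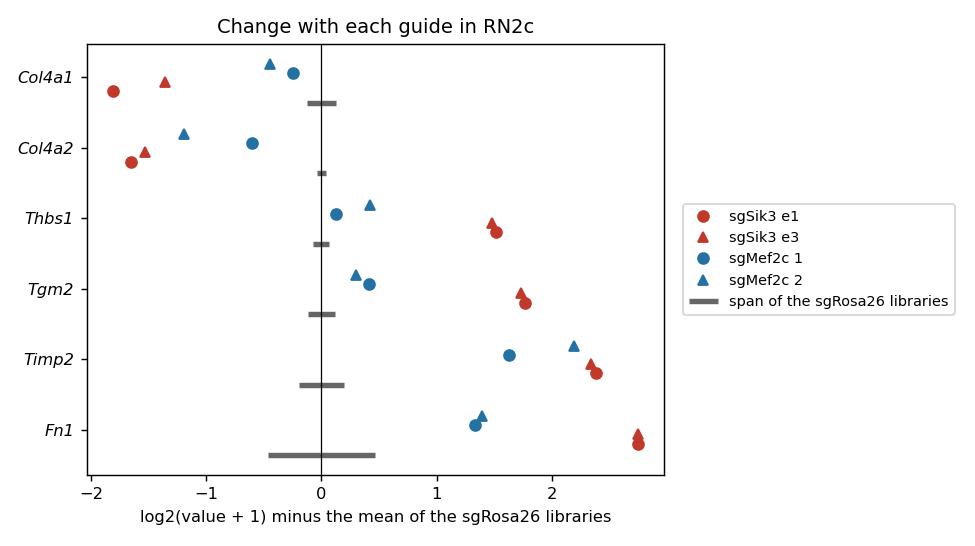
Change of 6 of the genes under each guide, as log2(value + 1) minus the mean of the sgRosa26 libraries (x axis), with red marks for sgSik3, blue for sgMef2c and a grey bar for the span of the controls. For Thbs1, Tgm2, Fn1 and Col4a1 the blue marks lie between the grey bar and the red marks, and for Timp2 the mark of sgMef2c guide 2 (2.19) comes close to that of sgSik3 e3 (2.34).

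Of the 8 genes, 5 reached the minimum mean value in the sgSik3 table, Fn1 through its high libraries, and 4 in the sgMef2c table. The 2 knockouts share their control libraries, so their changes are given side by side and not correlated. Markers of several cell types moved along. All 10 listed for neutrophils were past the test and higher with sgSik3, where 23.9% of all genes tested were higher and 23.9% lower, and 8 were higher and 1 lower with sgMef2c, where these shares were 16.3% and 15.1% (limma, adjusted p below the threshold of 0.05). Their summed level was 952 to 1043 CPM with sgRosa26, 4823 to 5270 with sgSik3 and 4183 to 8182 with sgMef2c, with no listed gene at 0. The sum was raised under both knockouts and highest in an sgMef2c library. Set directly against sgSik3 (edgeR), 1 of the 10 was higher and 4 were lower with sgMef2c, against 3.7% and 5.74% of all genes. Of the 9 blast markers 7 were higher and 1 lower with sgSik3, and 5 higher and 1 lower with sgMef2c, with sums of 2687 to 2931 CPM with sgRosa26, 4086 to 4128 with sgSik3 and 3993 to 4368 with sgMef2c. The fibroblast list had 1 gene that could be tested, Pdgfrb, which was higher with sgSik3. Of 3 macrophage markers tested, 1 was higher and 1 lower with sgSik3 and 2 were lower with sgMef2c, and of 2 endothelial ones 1 and then 2 were lower. Of 2 megakaryocyte markers tested, 1 was higher with sgSik3 and none moved past the test with sgMef2c. The part of these markers in the levels above was not tested.

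After 2 hours of YKL-05-099, none of the genes passed the test in RN2 or in MOLM-13 (limma, Benjamini-Hochberg over all genes tested). In RN2, 5 of the 8 could be tested and 0 were called, where 0.317% of all genes were. At an unadjusted p below 0.05 the count was also 0 in both lines, against 7.32% of all genes in RN2 and 1.27% in MOLM-13. Thbs1 stood at 711 and 853 CPM with DMSO and at 755 and 796 with the inhibitor, so that the treated values fell between the controls. Its log2 change was -0.01 (95% interval -0.16 to 0.14, adjusted p = 0.98 by limma), an interval far below the 1.50 seen with sgSik3 in RN2c, at another time, by another perturbation and in another table. Tgm2 was 2.37 and 1.59 with DMSO and 2.74 and 2.49 with the inhibitor, without overlap, as for 36.8% of all genes tested, and its log2 change of 0.41 had a 95% interval of -0.18 to 1.01 (adjusted p = 0.83 by limma). Col4a1 was 11.6 and 14.3 with DMSO and 11.0 and 12.2 with the inhibitor, overlapping, with a log2 change of -0.15 (-0.45 to 0.14, adjusted p = 0.88 by limma).

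The relatives gave the same picture in RN2. Timp2 was 4.45 and 4.34 with DMSO and 5.01 and 4.91 with the inhibitor, again without overlap. Its log2 change was 0.17 (95% interval -0.21 to 0.55, adjusted p = 0.9 by limma). Fn1 was 2.30 and 3.52 with DMSO and 2.61 and 2.09 with the inhibitor, a log2 change of -0.28 (-0.87 to 0.31, adjusted p = 0.9 by limma). Col4a2 had 8 or 9 reads in every RN2 library, Timp1 between 0 and 2, and Timp3 a single read in 1 library.

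In MOLM-13 the same genes formed another pattern of levels. THBS1 was rare, at 1.03 and 0.576 CPM with DMSO and 1.97 and 0.642 with the inhibitor, from 13 to 33 reads per library. The treated libraries lay on either side of the first control, and the log2 change of 0.53 had a wide 95% interval of -0.80 to 1.86 (adjusted p = 1 by limma). TIMP1 was the most read of the 8 in this line, at 45.8 and 60.5 with DMSO and 48.1 and 60.8 with the inhibitor. Its values followed the replicate number rather than the treatment, with a log2 change of 0.04 (95% interval -0.36 to 0.45, adjusted p = 1 by limma). TIMP2 was 21.7 in both DMSO libraries and 26.3 and 25.5 with the inhibitor, without overlap, as for 21.2% of all genes. Its log2 change was 0.26 (-0.01 to 0.53, adjusted p = 1 by limma), and 0.0% of all genes were called in MOLM-13.

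The remaining MOLM-13 values were low, with wide intervals where a test could be made. COL4A1 ranged from 1.28 to 1.51 CPM with a log2 change of -0.01 (95% interval -0.67 to 0.65), and FN1 from 1.90 to 2.28 with one of -0.04 (-0.61 to 0.54, both adjusted p = 1 by limma). TGM2 had 6 and 16 reads with DMSO and 4 and 14 with the inhibitor, again following the replicate number, and COL4A2 had 4 to 11 reads. TIMP3 had 1 read in all 4 libraries together.

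**Figure D3:**
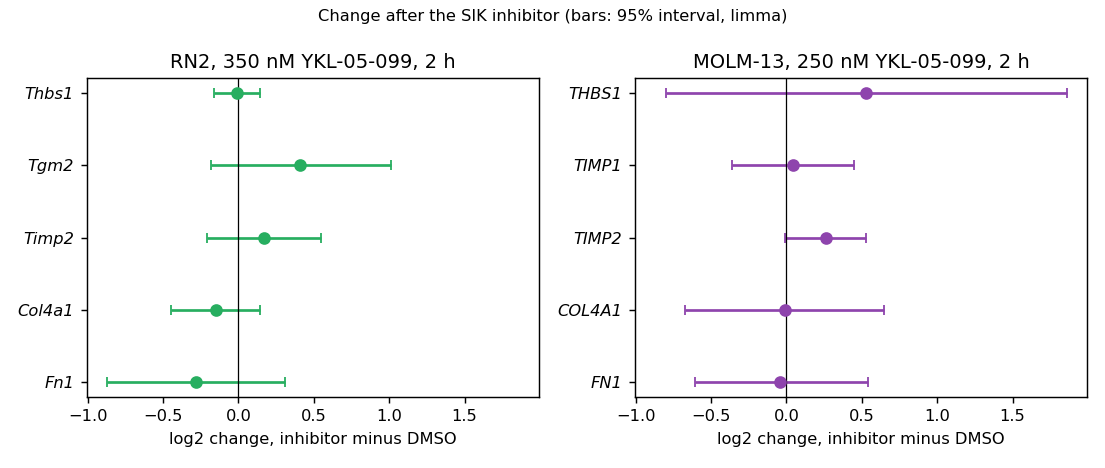
Log2 change after YKL-05-099 (x axis) for the 5 genes that could be tested in RN2 (left) and in MOLM-13 (right), with bars for the 95% interval from limma (2 libraries per group). Every interval includes 0, and the bar is shortest for Thbs1 in RN2, from -0.16 to 0.14.

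Across the 3 lines the order of the genes differed. Thbs1 had a median of 1207 CPM over the 6 RN2c libraries and 775 over the 4 RN2 libraries, against 0.836 for THBS1 in MOLM-13. Timp1 had medians of 0.0510 and 0.0679 in RN2c and RN2, against 54.3 in MOLM-13. Collagen IV and fibronectin differed between the mouse lines. Col4a1 was 11.0 to 14.3 in RN2, above every RN2c library, and Fn1 was 2.09 to 3.52 in RN2 against 0.144 and 0.317 in the sgRosa26 libraries of RN2c. Timp2, by contrast, was 4.34 to 5.01 in RN2, next to the sgRosa26 values of 4.84 and 6.38. These lines differ in species, culture and processing table, and no test was made between them.

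**Figure D4:**
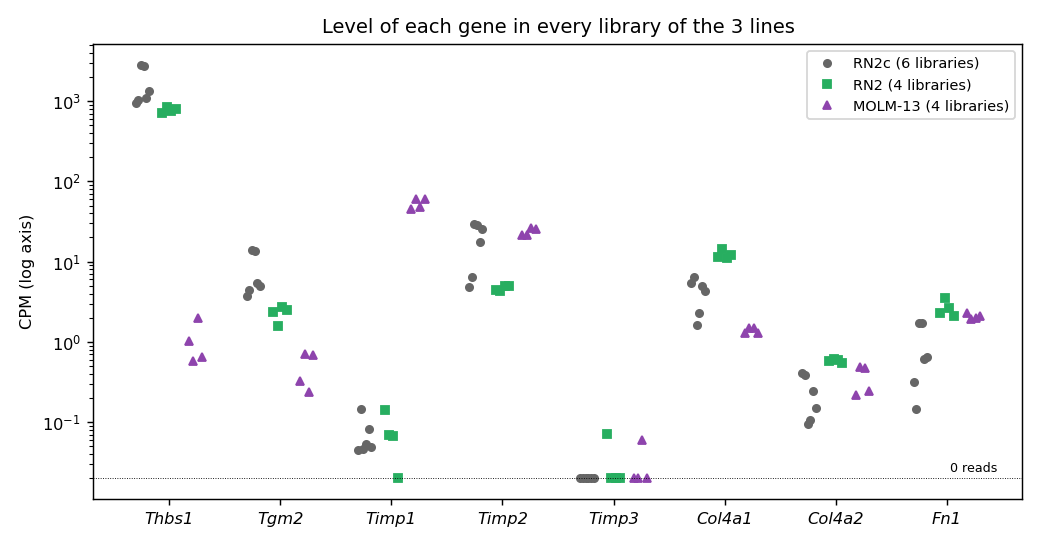
Level of each gene (x axis) in CPM (y axis, log scale) in every library of RN2c (grey circles), RN2 (green squares) and MOLM-13 (purple triangles), with libraries without a read drawn on the dotted line. Thbs1 lies between 711 and 2847 in the mouse lines and below 2 in MOLM-13, while TIMP1 lies between 45.8 and 60.8 in MOLM-13 and below 0.15 in the mouse lines.

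The genes that receive or act on these matrix proteins were examined as 7 lists of relatives, with the 8 genes left out. Of 140 relatives in the mouse tables, 70 could be tested in the sgSik3 comparison. There 20 rose and 21 fell (limma, 58.6% called, against 47.8% of all genes). With sgMef2c 14 rose and 21 fell of 69 tested (50.7%, against 31.4%), and no count is taken as particular to the lists. Of all genes, 23.9% rose and 23.9% fell with sgSik3, and 16.3% rose and 15.1% fell with sgMef2c. These shares are the background for the counts of each list below. Leaving out single libraries moved the number that rose with sgMef2c to between 7 and 12, the lowest without guide 2. With the inhibitor 0 were called of 63 tested in RN2 and of 85 in MOLM-13.

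Most listed receptors of thrombospondin 1 that could be tested fell under both knockouts. Of the 16 genes on the list, 7 could not be tested, Cd36 among them. Of 9 tested, 7 fell and 1 rose with sgSik3, where 23.9% of all genes fell and 23.9% rose. The median log2 change was -0.32 against 0.00 for all genes. The counts with sgMef2c were also 7 and 1 (median -0.49), where 15.1% of all genes fell and 16.3% rose. The beta-3 integrin chain Itgb3, which pairs with the alpha-v chain to bind thrombospondin and fibronectin, was 88.1 and 104 CPM with sgRosa26, 18.2 and 23.4 with sgSik3, and 56.4 and 53.3 with sgMef2c. Its log2 change was -2.22 (SE 0.11, adjusted p = 1.6e-06 by limma) with sgSik3 and -0.81 (SE 0.08, adjusted p = 0.00077 by limma) with sgMef2c. The direct log2 difference of 1.40 (SE 0.11, adjusted p = 0.00022 by edgeR) puts Itgb3 in the order of Col4a1, lowest with sgSik3. The endocytic receptor Lrp1 was 86.0 and 88.1 with sgRosa26, 49.4 and 57.1 with sgSik3 and 45.0 and 33.3 with sgMef2c, a fall of its log2 level by 0.72 (SE 0.07) and 1.17 (SE 0.12). Cd47, the receptor that also signals to phagocytes through SIRP-alpha, was the 1 that rose, by log2 0.35 (SE 0.03) with sgSik3 and 0.19 (SE 0.04) with sgMef2c.

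In the list of fibronectin receptors and partners, 7 of 12 tested fell and 1 rose with sgSik3 (median -0.25), against 23.9% and 23.9% of all genes. With sgMef2c 6 fell and none rose (median -0.43), against 15.1% and 16.3% of all genes. Itga4, Itgav, Itgb1, Itgb3 and Sdc4 are also on the thrombospondin list, so the counts of these lists overlap. The integrin chains Itga4, Itgb1, Itgb3 and Itgb7, the syndecan Sdc4 and the tensin Tns1 fell under both knockouts, and the tensin Tns3 with sgSik3. The alpha-5 chain Itga5 (0.10 and -0.02) and the alpha-v chain Itgav (0.09 and -0.11), named after their values were seen, did not pass the test in either. Itgb7, partner of the alpha-4 chain, was 42.1 and 57.1 CPM with sgRosa26, 15.6 and 15.3 with sgSik3 and 15.0 and 10.7 with sgMef2c. The alpha-4 chain Itga4 changed by log2 -0.52 (SE 0.05) and -0.49 (SE 0.06). Plaur, the urokinase receptor, rose with sgSik3 by log2 0.46 (SE 0.04), and its change of 0.23 with sgMef2c missed the threshold (adjusted p = 0.083 by limma).

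All 3 transglutaminases that could be tested besides Tgm2 rose with sgSik3, and 2 of them with sgMef2c, by limma. With DESeq2, Tgm1 was called under both knockouts, Tgm4 under neither, and F13a1 was not called with sgSik3. Tgm1, the keratinocyte enzyme, was 2.40 and 2.25 CPM with sgRosa26, 5.40 and 5.38 with sgSik3 and 5.23 and 6.07 with sgMef2c. Its log2 change was 1.19 (SE 0.16) and 1.26 (SE 0.16), and the direct difference of 0.06 (SE 0.14) had an adjusted p of 0.84 by edgeR. Tgm4 (0.44 and 0.38) and F13a1 (0.71 and 0.24, the latter not past the test), which encodes the A chain of coagulation factor XIII, changed less. Both lost their call with sgSik3 when library e3 was left out, F13a1 also without e1. Tgm4 lost its call with sgMef2c without the first sgRosa26 library, without either guide, or without the filter on low values.

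Metalloproteases and their inhibitors were mixed, with 4 of 15 tested higher and 3 lower with sgSik3, and 3 higher and 5 lower with sgMef2c. Mmp9, the gelatinase B stored in neutrophil granules and also counted among the neutrophil markers, was 2.99 and 4.65 CPM with sgRosa26, 34.6 and 32.3 with sgSik3, and 8.65 and 20.6 with sgMef2c. Its log2 change was 3.14 (SE 0.18) with sgSik3 and 1.82 (SE 0.39) with sgMef2c. Cd63, the TIMP1 partner, rose by 0.54 (SE 0.04) and 0.56 (SE 0.06). The sheddase Adam17 fell in both, by 0.30 (SE 0.03) and 0.52 (SE 0.04) on the log2 scale, and Adam8 by 0.33 (SE 0.06) and 0.71 (SE 0.06).

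Of the other basement membrane genes 5 could be tested, and with each knockout 1 rose and 2 fell. The proteoglycan agrin (Agrn) rose by log2 0.98 (SE 0.07) and 0.92 (SE 0.08). The laminin chains Lamc1 (-0.86 and -1.01) and Lama5 (-1.08 and -0.82) fell, though Lama5, at 1.41 to 4.41 CPM, lost its call with sgSik3 without e1, and with sgMef2c without the second sgRosa26 library, without guide 2, or with DESeq2. Among 11 tested genes of collagen folding and crosslinking, 3 rose and 5 fell with sgSik3 and 2 rose and 2 fell with sgMef2c. Crtap, part of the prolyl 3-hydroxylase complex, changed by -0.51 (SE 0.07) and -0.41 (SE 0.07), P4ha1, a prolyl 4-hydroxylase chain, by -0.27 (SE 0.05) and -0.51 (SE 0.06), and the lysyl hydroxylase Plod1 by 0.45 (SE 0.05) and 0.35 (SE 0.06).

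In the TGF-beta pathway 7 of 20 tested genes rose and 1 fell with sgSik3 (40.0% called, against 47.8% of all genes). With sgMef2c 5 of 19 rose and 3 fell (42.1%, against 31.4%). Those that rose with sgSik3 by the lowest p were the co-repressors Ski (0.36, SE 0.04) and Skil (0.47, SE 0.06) and the ubiquitin ligase Smurf2 (0.26, SE 0.05), which restrain SMAD signalling. With sgMef2c the homeobox repressor Tgif1 fell by 0.32 (SE 0.06), Nrros, which holds latent TGF-beta on myeloid cells, fell by 0.21 (SE 0.04), and Id2, a SMAD target, rose by 0.53 (SE 0.11). Id2 lost its call without the second sgRosa26 library or without guide 2, and Nrros without the second sgRosa26 library. The neutrophil markers whose sums are given above also rose under both knockouts, and their part in the changes of the relatives was not tested.

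Set directly against each other (edgeR), the knockouts differed in 18 of 69 relatives (26.1%), 2 higher and 16 lower with sgMef2c, against 9.44% of all genes (3.7% higher and 5.74% lower). Besides Itgb3, the 1 higher with sgMef2c was Tns3 (0.17, SE 0.04), a focal adhesion protein, which lost its call with DESeq2 and without either Mef2c guide. Among those lower with sgMef2c were Mmp28 (-0.82, SE 0.11), Itga6 (-0.53, SE 0.07), Adam8 (-0.38, SE 0.06) and Tgif1 (-0.30, SE 0.06). None of the 3 other transglutaminases and none of the 5 basement membrane genes were called. The fit gave all 3 RN2c groups 1 shared estimate of the spread, though the groups differed in it. Chi-square per degree of freedom between the libraries of a group was 1.74 for sgSik3, 4.34 for sgRosa26 and 8.95 for sgMef2c. The calls among the relatives leaned on having both Sik3 libraries. Without e1, and also without e3, 1 relative was higher and 0 were lower, the 1 that kept its call being Itgb3, and of all genes 50 in place of 1034 were called. Without sgMef2c guide 1 it was 1 and 9, without guide 2 it was 1 and 11, and DESeq2 called 1 and 7.

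**Figure D5:**
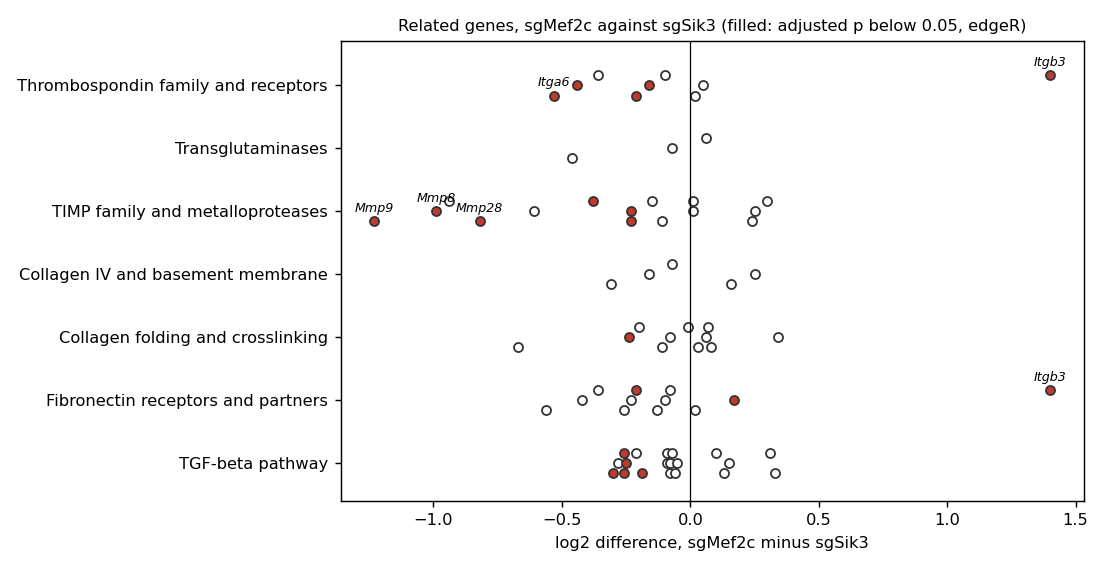
Log2 difference, sgMef2c minus sgSik3 (x axis), of every related gene that could be tested, by list (y axis), with filled points for an adjusted p below 0.05 by edgeR over 2 libraries per group. Itgb3, which belongs to 2 lists, stands alone at 1.40, and Mmp9 lies at the other end at -1.23.

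The genes that tracked the patterns of the chosen trio most closely over the 6 RN2c libraries were looked up. The measure is a description, since the 6 libraries are 3 groups of 2. Over 9606 genes with a mean of at least 50 reads, Pearson's r of log2(CPM + 1) with Thbs1 was highest for Ddx6, an RNA helicase (0.9971), Naip5, a sensor of bacterial flagellin (0.9963), and Mov10, another RNA helicase (0.9953). For Tgm2 these were Gramd1b, a sterol carrier (0.9950), Ypel2 (0.9948) and Ostm1 (0.9938), and for Col4a1 they were Lzic (0.9949), the DNA ligase Lig3 (0.9934) and Comtd1 (0.9930). Their changes were smaller than those of the trio. Ddx6, for instance, was 430 and 441 CPM with sgRosa26, 500 and 502 with sgSik3 and 439 and 454 with sgMef2c, and Lig3 was 90.5 and 92.4, 74.1 and 76.5, and 86.6 and 85.4.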

How the data were processed

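The values analysed are a signal that the authors deposited in 4 tables, 1 per comparison, in which DESeq2 size factors had been divided out of the reads. HISAT2, featureCounts and DESeq2, with hg19 and mm10, are listed per the submitters' processing notes; versions, parameters and strand settings are not given in the sources used. Dividing by the worth of 1 read gave whole reads for 100% of values (tolerance 1e-06 reads). The sgRosa26 libraries held identical reads in both knockout tables (0 genes differed). The labels name no separate cultures for the 2 libraries of a group, so p-values measure the spread between these libraries only, which may be technical, and in the knockouts this includes the difference between guides.

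Within each table, genes whose mean value reached 10 were tested with limma 3.58.1 (trend, log2(value + 1), two-sided, Benjamini-Hochberg, threshold 0.05) in R 4.3.3. This scale understates changes of low genes. The knockouts were compared directly with edgeR 4.0.16 (quasi-likelihood, TMM) on the recovered reads of 6 RN2c libraries. DESeq2 1.42.0, other filters, pseudocounts and scalings, the replicate block and leaving out each library were alternatives. On simulated data, limma, edgeR and DESeq2 were tried for a pair of full groups, and edgeR also for the RN2c groups together. The simulation gave every gene the same dispersion. Other alternatives, such as the replicate block and left-out libraries, were not simulated. Exon lengths and coordinates come from GENCODE M21 (GRCm38), promoters from RefSeq.

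Named were the 8 genes, the targeted genes, of each list of relatives the 3 of lowest p among those past the test per comparison, and the 3 genes most like Thbs1, Tgm2 and Col4a1. The members and lists were chosen with earlier results of these data known.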

Additional observations from a re-analysis of the deposited data

How the results depend on the processing

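The fitted log2 changes in RN2c (5 members with sgSik3 and in the direct comparison, 4 with sgMef2c) kept their direction in every alternative that fitted them. With sgSik3, Fn1 was not fitted at the higher filter. Thbs1, Tgm2 and Col4a1 were picked from differences in these same libraries, so their unchanged direction describes the processing and is no support for a change. The pooled read ratio of Timp1, which rests on 1 to 3 reads per library, turned without the second sgRosa26 library, from 0.520 to 1.07 with sgSik3 and from 0.706 to 1.45 with sgMef2c. In RN2, the range when 1 library was left out was -0.14 to 0.12 for Thbs1 and -0.58 to 0.01 for Fn1. In MOLM-13 it was -0.25 to 1.30 for THBS1, -0.16 to 0.24 for TIMP1, -0.12 to 0.10 for COL4A1 and -0.16 to 0.09 for FN1, so these directions are not settled, and none passed the test in any alternative. Timp2 and Tgm2 in RN2, Col4a1 in RN2 and TIMP2 in MOLM-13 kept their direction throughout.

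Counts of all genes called moved more. With DESeq2 they were 2255 for sgMef2c (3442 with limma), 606 for the direct comparison (1034 with edgeR) and 7 for MOLM-13. In MOLM-13 limma and edgeR called 0, and 144 genes had an unadjusted p below 0.05. Without the filter, RN2 gave 3 in place of 34. Leaving out 1 library gave 1815 to 3138 for sgMef2c (lowest without guide 2), 28 to 321 for RN2 (highest without DMSO replicate 2), 14 to 20 for MOLM-13 and 50 to 1152 for the direct comparison (50 without either sgSik3 library, 633 without sgMef2c guide 1). The cause was not tested. A group then holds 1 library, which is assumed to vary like the others.

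Libraries share only a number between groups. Deviations of same-numbered libraries correlated at 0.0514 (sgMef2c), 0.216 (RN2) and 0.525 (MOLM-13), and with the replicate block 3905, 499 and 290 genes were called. No member was called in either inhibitor comparison with the block. The sgSik3 guides share no number with the controls. Depth limits Col4a2, Fn1, Timp1 and Timp3, which rest on 0 to 37 reads per RN2c library.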
